A study of Mus musculus with 4 samples.

Results

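The 6 endocannabinoid genes Cnr1, Dagla, Daglb, Mgll, Faah and Napepld were examined, out of 21938 protein-coding mouse genes, in single-nucleus ATAC-seq libraries, which count transposase cut sites in open chromatin. The genes were listed by name, although earlier results of these data were known when the list was made. Each was read over its gene body and 20 kb either side, where the libraries' peaks merged into 121 of 185260 regions. The nuclei came from Dlx6aCre;Sun1/sfGFP mice at postnatal day 30, in which Cre driven from Dlx6a, a gene of the forebrain GABAergic lineage, switches on a GFP-tagged nuclear envelope protein, and DAPI+/GFP+ nuclei were sorted. All animals carried this genotype, none was treated, and the 2 groups were cortex and hippocampus with 2 libraries each. The labels do not say whether the libraries of a group came from separate animals, so p-values measure the spread between libraries, which may be technical. Any cell that ever expressed Dlx6a keeps the tag, so the sort holds several interneuron types together and marks lineage rather than present expression.

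Endocannabinoids are lipid messengers that neurons make on demand and that travel backwards across the synapse. Cnr1 encodes the CB1 receptor, a presynaptic receptor that lowers transmitter release and is known for its abundance on cholecystokinin (Cck) basket cells of cortex and hippocampus. Dagla and Daglb encode the lipases that make 2-arachidonoylglycerol, Mgll encodes the lipase that breaks it down, Napepld encodes a phospholipase that makes anandamide, and Faah encodes the hydrolase that breaks anandamide down. Lhx6 encodes a transcription factor of interneurons from the medial ganglionic eminence (MGE), which include parvalbumin and somatostatin cells, whereas Cck basket cells come mostly from the caudal ganglionic eminence (CGE).

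The 4 libraries held 15306 nuclei and 32005984 to 117290059 cut sites in peaks, and cortex replicate 1 had a median of 47236 cut sites per nucleus against 7352 to 14917 in the others. Each library carried its own peak set of 61965 to 157220 peaks, so a region without a peak in a library has no count there. The 7 pan-GABA markers summed to 720 to 1139 CPM (cut sites per 1000000 in the library's peaks) and none was at 0, whereas the 6 excitatory-neuron markers summed to 40.0 to 68.7 CPM. Sums were 204 to 265 CPM for 5 microglia markers and 116 to 156 CPM for 5 astrocyte markers. They were 58.7 to 128 CPM for 4 endothelium markers and 67.4 to 104 CPM for 5 markers of striatal projection neurons. The 9 oligodendrocyte-lineage markers summed to 230 to 330 CPM, and 5.18% to 26.6% of nuclei did not have more pan-GABA than oligodendrocyte-lineage cut sites. Between 11 and 47 barcodes were shared by any pair of libraries.

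The sequences below are those of Cnr1, the gene whose window differed between gated nuclei. They are from RefSeq, GRCm38.p6, on the gene's strand, and capitals mark motif letters found by searching both strands. The first is the 110 exon-free bases before a RefSeq start, chr4:33924154-33924263, inside the region that holds the gene start, and its capitals are 3 copies of GGGCGG. The second is the 72 exon-free bases before a GENCODE start in an intron, chr4:33926130-33926201, with no motif match. The third is 300 bases of an intergenic region downstream of the gene, chr4:33952026-33952325, with 1 CCAAT box and 1 TATA box in capitals.
Cnr1 start: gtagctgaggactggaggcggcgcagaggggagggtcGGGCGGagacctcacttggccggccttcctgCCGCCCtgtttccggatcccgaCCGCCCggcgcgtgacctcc
Cnr1 second start: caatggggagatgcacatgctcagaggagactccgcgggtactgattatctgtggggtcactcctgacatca
Cnr1 downstream region: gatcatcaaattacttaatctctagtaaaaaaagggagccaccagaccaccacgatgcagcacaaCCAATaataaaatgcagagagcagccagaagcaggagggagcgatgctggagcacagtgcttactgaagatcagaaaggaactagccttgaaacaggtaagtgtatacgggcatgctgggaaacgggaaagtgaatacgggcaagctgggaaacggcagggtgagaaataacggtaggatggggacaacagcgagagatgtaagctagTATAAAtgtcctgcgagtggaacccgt
The motifs searched were TGACGTCA (named CRE), TGANTCA (named AP-1), GGGCGG (the GC box), CCAAT (the CCAAT box), TATAAA (the TATA box) and TAATTA (a homeodomain core). Of 32851 RefSeq promoters of 300 bases, 35.7% hold GGGCGG, 37.4% CCAAT, 13.6% TATAAA, 7.81% TGANTCA, 5.29% TAATTA and 1.79% TGACGTCA. The first Cnr1 promoter held 5 copies of GGGCGG, the Faah promoter 2, and both Mgll promoters 1 each, while the other Cnr1 promoters and those of Daglb and Napepld held none of the 6 motifs. Among the middle 300 bases of 141015 merged regions, 29.4% hold CCAAT and 13.8% TATAAA, so the downstream stretch carried motifs that are frequent in such regions.

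All 6 windows held open chromatin in every library, and their levels per kb of window differed several-fold between genes. Mgll stood highest with a mean of 2.97 ± 0.26 CPM per kb (SD, n = 4 libraries), at the 93.3 percentile of protein-coding genes. It was followed by Napepld with 1.91 ± 0.34, Dagla with 1.69 ± 0.11 and Cnr1 with 1.15 ± 0.10 CPM per kb. Daglb with 0.747 ± 0.212 and Faah with 0.551 ± 0.171 CPM per kb lay lowest, near the median of all protein-coding genes of 0.671. The libraries of Mgll did not overlap those of Napepld, nor those of Dagla those of Cnr1. The neighbours Napepld and Dagla, Cnr1 and Daglb, and Daglb and Faah overlapped, so their order was not resolved. Part of these levels belongs to other genes. The Mgll window takes in the shared start region of Abtb1 and Podxl2 with 85.2 to 140 CPM, its most cut region. The Dagla window takes in Myrf, a transcription factor of myelinating oligodendrocytes. The Napepld window takes in the start region of Armc10 and Fbxl13 with 33.9 to 52.6 CPM, and an Armc10 intron region with 15.2 to 24.6 CPM. The Daglb window takes in a Rac1 exon region with 9.53 to 23.7 CPM.

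**Figure D1:**
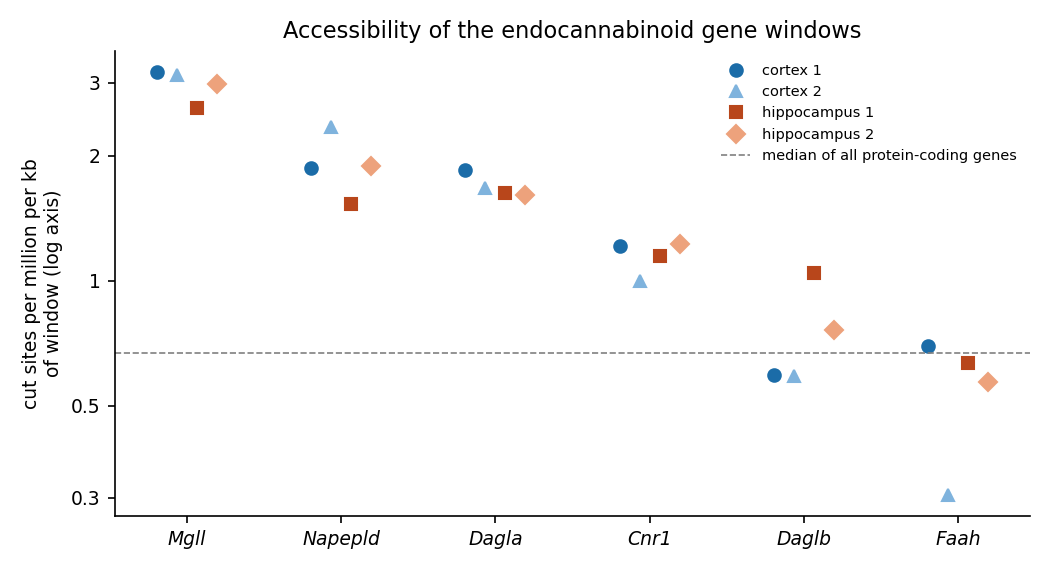
CPM per kb of window (log axis) of each gene in the 4 libraries, which are the points; the dashed line is the median of all protein-coding genes, 0.671. Mgll lies above 2.6 in every library and the cortex replicate 2 value of Faah, 0.306, is the lowest point.

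The first comparison asked whether the genes differ between hippocampus and cortex. None of the 6 windows passed the test, against 0.087% of 18399 gene windows called (edgeR's quasi-likelihood test, Benjamini-Hochberg adjusted p under 0.05). At an unadjusted p under 0.05, there was 1 of the 6, against 3.1% of all windows, and DESeq2 called 0, against 0.935%. Power was low in a simulation that gave every window edgeR's common dispersion, its measure of spread between libraries, of 0.267. Of 100 simulated gene windows changed 4-fold, 3 were recovered. With covered length as an offset the dispersion was 0.0219, so the simulation does not give the power for each member. The members' median log2 fold change was -0.01, beside -0.06 for all windows tested.

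Cnr1, the receptor, had 78.0 and 64.3 CPM in cortex and 73.6 and 78.6 CPM in hippocampus. The groups overlapped, and the log2 fold change was 0.10 ± 0.27 (SE, adjusted p = 1.00 in edgeR's test). Dagla had 183.7 and 166.8 CPM in cortex against 162.1 and 160.2 CPM in hippocampus, and its partner Daglb had 48.2 and 48.1 CPM against 84.8 and 62.0 CPM. The cortex libraries of Dagla lay above its hippocampus libraries, and those of Daglb lay below. The log2 fold changes were -0.12 ± 0.29 for Dagla and 0.61 ± 0.27 for Daglb, with adjusted p = 1.00 for both in edgeR's test. For Dagla the log2 fold change was -0.56 over gene body and 2 kb upstream, -0.37 over common regions, -0.57 over regions at least 50% covered and -0.02 with covered length as an offset, with no call by edgeR. Separation of this kind was common, being found in 22.4% of the windows tested.

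Mgll, the enzyme that clears 2-arachidonoylglycerol, had 458.5 and 450.8 CPM in cortex against 374.7 and 428.3 CPM in hippocampus, a log2 fold change of -0.18 ± 0.32 with no overlap of the groups. Faah had 63.1 and 27.7 CPM in cortex and 57.5 and 51.8 CPM in hippocampus, where the spread lay in cortex, and its log2 fold change was 0.26 ± 0.28. Napepld had 146.4 and 184.4 CPM against 120.3 and 148.6 CPM, with overlapping groups and a log2 fold change of -0.30 ± 0.29. These 3 also had adjusted p = 1.00 in edgeR's test.

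The direction of several members changed when the length of sequence called as peaks was taken into account. The Daglb window held 6 and 4 peaks over 4.93 and 1.70 kb in cortex, and 16 and 5 peaks over 9.95 and 4.11 kb in hippocampus. Per kb of covered sequence, Daglb had 9.78 and 28.2 CPM in cortex against 8.52 and 15.1 CPM in hippocampus, with overlapping groups and the opposite order of means. With covered length as an offset the log2 fold changes were -0.23 for Cnr1, -0.08 for Daglb, -0.17 for Faah and 0.18 for Napepld, so these 4 changed direction, and no member was called. How far peak calling contributes was not tested.

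Peak by peak, 38 of the 121 regions held a peak in every library and could be compared. Another 27 held one in 3 libraries, 15 in 2 and 41 in a single library. None of the 38 was called by edgeR, against 0.589% of 46698 common regions, 6 had an unadjusted p under 0.05, against 9.57% of all, and DESeq2 called 1, against 0.754% of all common regions. Of the 38, 31 were lower in hippocampus with a median log2 fold change of -0.31. Among all common regions 66.9% were lower and the median was -0.17, and with TMM scaling the medians were -0.145 for the 38 and -0.0226 for all. Common regions held 78.8% and 92.5% of the cut sites in the cortex libraries against 68.5% and 83.6% in hippocampus. CPM are scaled to all peaks of a library, and how far these shares contribute was not tested. The 2 groups did not overlap in 24 of the 38, where 37% of all common regions did not. Leaving out 1 library in turn, edgeR called 4 of the 38 without cortex replicate 1, where 10.2% of all common regions were called, and 3 without cortex replicate 2, where 4.64% were. It called 1 without hippocampus replicate 1 and 0 without hippocampus replicate 2, where 0.887% and 0.0749% of all were called.

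The region holding the gene start had a log2 fold change below 0 in each member, as had 66.9% of all common regions, and none was called. The Cnr1 start region, chr4:33922779-33925574, had 46.8 and 48.8 CPM in cortex against 26.9 and 46.6 CPM in hippocampus, a log2 fold change of -0.38 ± 0.41. Those of Dagla (chr19:10302850-10305891) and Mgll (chr6:88723869-88728375) had log2 fold changes of -0.58 ± 0.38 and -0.27 ± 0.42. Those of Daglb (chr5:143463909-143465217), Faah (chr4:116016171-116018705) and Napepld (chr5:21700503-21702229) had -0.05 ± 0.36, -0.23 ± 0.36 and -0.31 ± 0.46. Each had an adjusted p between 0.807 and 0.987 in edgeR's test.

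The smallest p among the members' regions lay in the Dagla window but inside an intron of Myrf, chr19:10232522-10234321. It had 1.16 and 2.75 CPM in cortex against 10.3 and 6.18 CPM in hippocampus, a log2 fold change of 2.09 ± 0.59 (edgeR adjusted p = 0.109). Both hippocampus libraries lay above both cortex libraries, but 217 and 177 bases of the region were covered by peaks in cortex against 1800 and 510 in hippocampus. Per covered kb the region had 5.34 and 15.5 CPM in cortex against 5.75 and 12.1 CPM in hippocampus, where the groups overlapped. Leaving out a cortex library left 1 cortex library, so only effect sizes are given. The log2 fold change was 1.59 lacking replicate 1 and 2.83 lacking replicate 2. The oligodendrocyte-lineage markers summed to 301 and 230 CPM in cortex and 319 and 330 CPM in hippocampus, with 1 and 5 of the 9 at 0 in cortex and none in hippocampus. Among nuclei with more pan-GABA than oligodendrocyte-lineage cut sites the log2 fold change was 1.74 (edgeR adjusted p = 0.831), and the part of oligodendrocyte-lineage nuclei was not tested further.

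Within Dagla itself an intron region 14.6 kb from the start, chr19:10289647-10290900, had the opposite sign. It had 7.95 and 3.87 CPM in cortex against 0.401 and 0.522 CPM in hippocampus, a log2 fold change of -3.68 ± 1.22 (edgeR adjusted p = 0.193), named after its values were seen because DESeq2 called it with an adjusted p of 0.00301. Its peaks covered 1254 and 224 bases in cortex and 119 and 87 bases in hippocampus. Per covered kb it had 6.34 and 17.3 CPM in cortex against 3.37 and 5.99 CPM in hippocampus, where the groups did not overlap, and with covered length as an offset the log2 fold change was -0.75 (edgeR adjusted p = 1.00). Without cortex replicate 2, which left 1 cortex library, the log2 fold change was -4.11.

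The regions with the smallest p of the other members were small differences. They were an upstream region of Cnr1 (chr4:33920659-33922021, -0.39 ± 0.34), a Rac1 exon in the Daglb window (chr5:143507479-143510924, 0.78 ± 0.36), and introns of Mgll (chr6:88776436-88777713, -0.70 ± 0.41) and Faah (chr4:115980611-115981143, -0.34 ± 0.37). In the Napepld window it was an Armc10 intron (chr5:21657840-21659118, -0.42 ± 0.35). Values are log2 fold changes with SE, and edgeR adjusted p ran from 0.483 to 0.965.

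**Figure D2:**
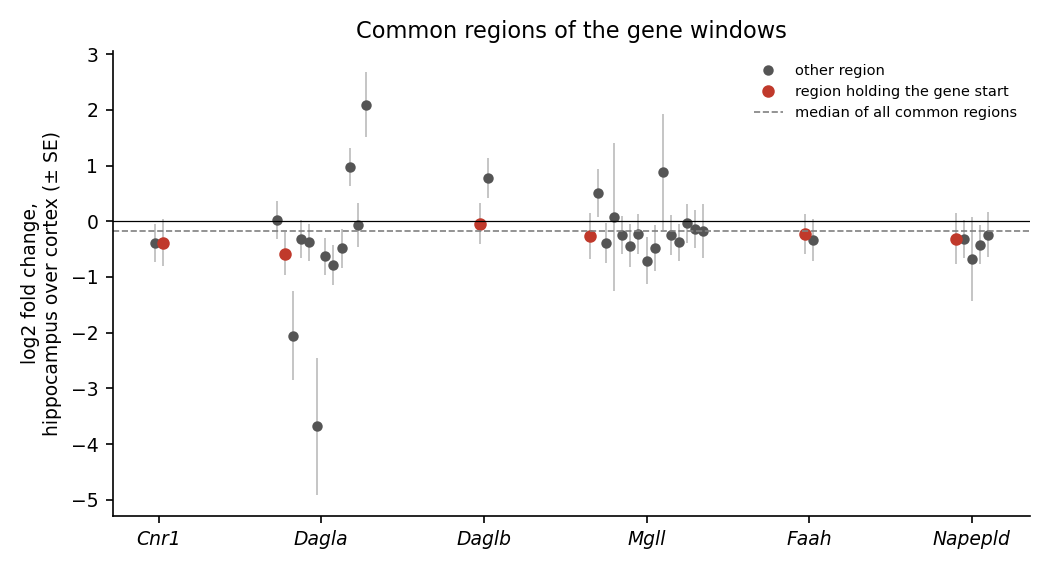
Log2 fold change of hippocampus over cortex (± SE) in the 38 regions with a peak in every library, grouped by gene and ordered within it by distance from the start; red points hold a gene start, and the dashed line is the median of all common regions, -0.17. The 2 lowest points, both in Dagla introns, and the highest, in the Myrf intron, carry wide error bars.

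The second comparison asked whether the genes differ between nuclei with open Cck and nuclei with open Lhx6. Nuclei were thinned to 5000 cut sites, and those with at least 1 cut site over the gene body and 2 kb upstream of Cck and 0 of Lhx6 were called Cck-gated, and the reverse Lhx6-gated. The 2 gates held 134 and 891 nuclei in cortex replicate 1, 84 and 502 in cortex replicate 2, 162 and 1619 in hippocampus replicate 1, and 105 and 760 in hippocampus replicate 2. Between 2 and 1026 nuclei per library had fewer than 5000 cut sites and were left out, and the gates are sparse marks rather than cell types. Among nuclei with more pan-GABA cut sites, 3.23% to 9.59% had a Cck cut site, against 0.822% to 3.64% of those with more oligodendrocyte-lineage cut sites. In cortex replicate 2 these shares were 3.23% and 2.91%, with medians of 8656 and 7964 cut sites, and for Lhx6 they were 16.1% and 18.5%. By these shares alone, neither gate was distinguished from background there.

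Markers of both lineages were found in both gates at different levels, and the MGE list holds the gate gene Lhx6 itself. Of 7 tested CGE markers Adarb2 and Prox1 rose in Cck-gated nuclei, and of 8 MGE markers Sst, Satb1 and Sox6 fell. The 8 CGE markers summed to 150 to 370 CPM in Cck-gated against 116 to 292 CPM in Lhx6-gated nuclei, a log2 ratio of 0.30 to 0.42 with 1 marker at 0 in each of 3 libraries. Without Lhx6, the other 7 MGE markers summed to 397 to 986 against 536 to 1083 CPM, a log2 ratio of -0.43 to -0.14 with none at 0. In cortex replicate 2 the log2 ratio was 0.37 for the CGE markers and -0.43 for the MGE markers without Lhx6. No oligodendrocyte-lineage marker was called, and their summed log2 ratio ran from -0.10 to -0.01.

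Cnr1 was higher in Cck-gated than in Lhx6-gated nuclei and was the member called, where 0.421% of 18534 gene windows were called and 0.237% were called higher. It had 77.6, 75.4, 92.0 and 93.6 CPM in Cck-gated nuclei of cortex replicates 1 and 2 and hippocampus replicates 1 and 2. In Lhx6-gated nuclei of the same libraries it had 74.0, 59.4, 59.8 and 65.7 CPM. The value was higher in Cck-gated nuclei in 4 of 4 libraries, as in 7.4% of all windows tested, with the smallest gap in the deepest library, cortex replicate 1. The log2 fold change was 0.36 ± 0.09 (SE derived from edgeR's test, edgeR adjusted p = 0.032). The log2 ratios of the single libraries had a mean of 0.39 ± 0.24 (SD, n = 4 libraries).

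The call on Cnr1 was close to the threshold and was lost without any 1 of 3 libraries. Without hippocampus replicate 1 the log2 fold change was 0.27 (edgeR adjusted p = 0.719), without hippocampus replicate 2 it was 0.32 (0.299), and DESeq2 gave 0.38 with an adjusted p of 0.108. Without cortex replicate 2 the edgeR adjusted p was 0.0549, and without cortex replicate 1 it was 0.022. With the gate read from all cut sites the log2 fold change was 0.56 and the edgeR adjusted p 1.14e-05, and among nuclei with more pan-GABA than oligodendrocyte-lineage cut sites it was 0.38 with 0.0308. Counting error was largest in cortex replicate 2, where 57 cut sites gave the Cck-gated value a 95% exact binomial interval of 57.1 to 97.7 CPM, covering counting error only. The call was also lost with gates thinned to 2000 cut sites (0.41, edgeR adjusted p = 0.42), with gates of at least 2 cut sites (0.42, 0.998), without the library block (0.39, 1.00) and over common regions alone (0.22, 0.523). It was lost too over gene body and 2 kb upstream (0.34, edgeR adjusted p = 0.214), without peaks at other gene starts (0.36, 0.0527) and with the readout thinned as well (0.42, 0.251).

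The other 5 members were not called. Dagla had 176.6, 178.6, 164.5 and 119.0 CPM in Cck-gated nuclei against 194.3, 180.1, 163.5 and 171.6 CPM in Lhx6-gated nuclei, in the library order given for Cnr1. It was lower in 3 of 4 libraries and most so in hippocampus replicate 2, with a log2 fold change of -0.16 ± 0.07 (edgeR adjusted p = 0.392). With the gate read from all cut sites it was called (edgeR, 3.03% of all windows), at -0.30 with an adjusted p of 0.00176, and with the gate genes read over 20 kb either side (2.3% of all windows) at -0.16 with 0.0225. Over gene body and 2 kb upstream, which leaves out Myrf, the log2 fold change was -0.05 (edgeR adjusted p = 0.958).

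Napepld had 138.3, 185.3, 118.7 and 139.9 CPM in Cck-gated nuclei against 153.3, 199.1, 125.5 and 154.6 CPM in Lhx6-gated nuclei. It was lower in 4 of 4 libraries, as in 8.4% of all windows tested, with a log2 fold change of -0.12 ± 0.07 (edgeR adjusted p = 0.655). Over gene body and 2 kb upstream, which leaves out the Armc10 regions, the log2 fold change was -0.08 (edgeR adjusted p = 0.938). Daglb, Mgll and Faah had log2 fold changes of -0.02 ± 0.10, -0.01 ± 0.05 and 0.02 ± 0.11, with an edgeR adjusted p of 0.985 to 0.993. Mgll had the smallest SE of the 6, on Cck-gated sums of 344 to 3015 cut sites. The median over the 6 members was -0.017, beside -0.00329 over all windows.

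**Figure D3:**
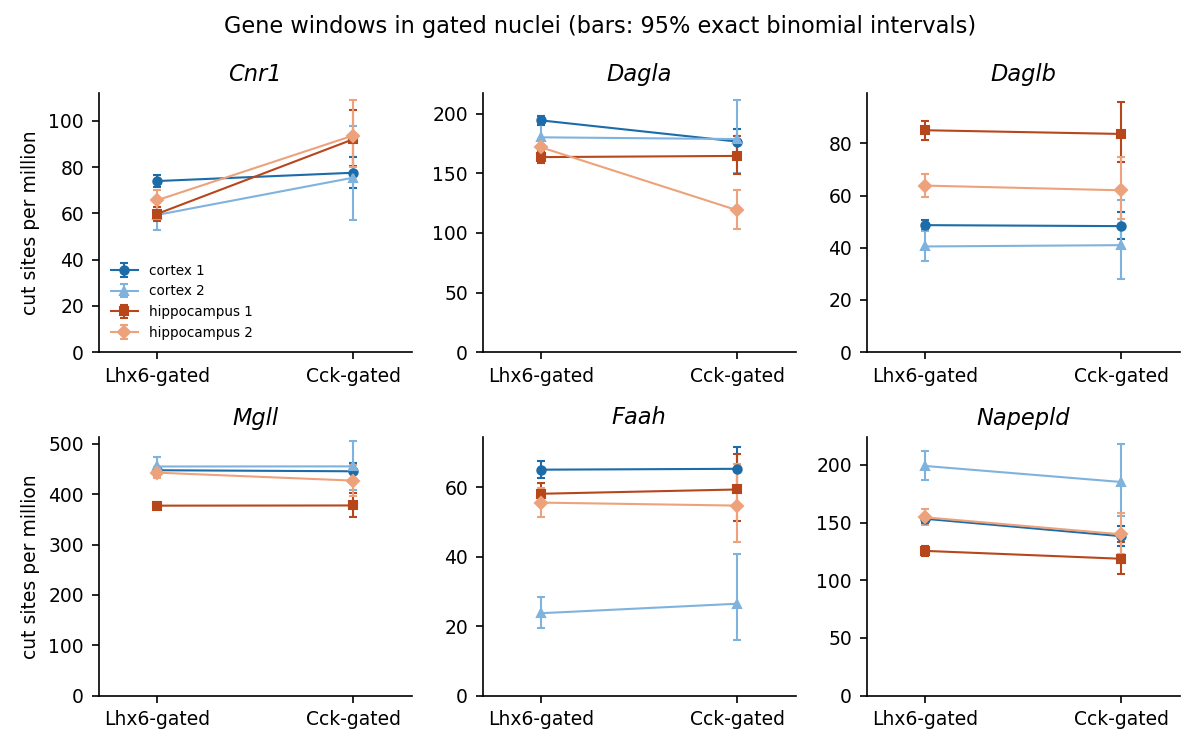
CPM in each gene's window in Lhx6-gated and Cck-gated nuclei, with 1 line per library and bars for 95% exact binomial intervals (counting error only). The Cnr1 lines rise in all 4 libraries, from 59.4 to 74.0 CPM up to 75.4 to 93.6 CPM, and those of Daglb, Mgll and Faah stay within 0.16 on the log2 scale.

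The nuclei left out of both gates were read as well. Nuclei with a cut site in both genes had 77.6, 77.7, 83.1 and 62.5 Cnr1 CPM in the library order given above, the second on 8 cut sites, and in hippocampus replicate 2 this was below the Lhx6-gated value. Nuclei with a cut site in neither gate gene had 81.2, 66.2, 82.1 and 83.2 CPM, and 52.9% to 81.1% of the nuclei were of this kind. Their value was above the Lhx6-gated value in 4 of 4 libraries, and below the Cck-gated value in all but cortex replicate 1. The means over libraries were 84.7 CPM in Cck-gated nuclei, 78.2 CPM in nuclei of neither gate and 64.7 CPM in Lhx6-gated nuclei. Binned by Lhx6 alone, Cnr1 had 80.9, 66.5, 82.7 and 83.8 CPM at 0 cut sites and 75.4, 56.9, 61.7 and 64.4 CPM at 1 or 2. At 3 or more it had 65.6, 106.0, 59.8 and 73.7 CPM, where cortex replicate 2 rested on 30 Cnr1 cut sites in 34 nuclei. Binned by Cck alone, it had 78.0, 65.0, 73.5 and 78.2 CPM at 0 and 78.0, 76.7, 88.9 and 85.8 CPM at 1 or 2, so cortex replicate 1 showed no step. At 3 or more Cck cut sites there were 1 to 7 nuclei per library and 0 to 8 Cnr1 cut sites, too few to read a level.

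**Figure D4:**
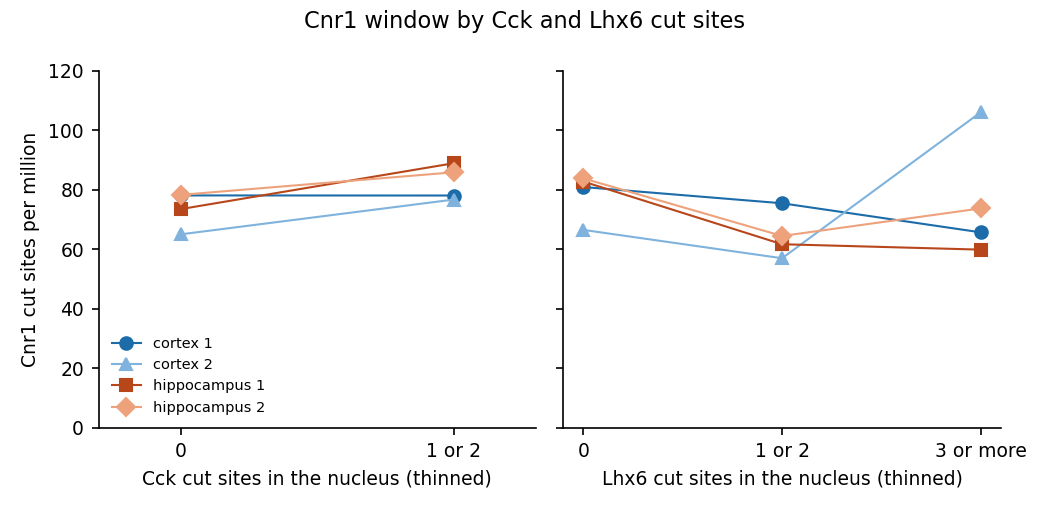
Cnr1 CPM in nuclei binned by their thinned cut sites in Cck (left) and Lhx6 (right), with 1 line per library. Between 0 and 1 or 2 Lhx6 cut sites all 4 lines fall, and between 0 and 1 or 2 Cck cut sites 3 rise and cortex replicate 1 stays at 78.0.

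Peak by peak, the regions of the Cnr1 window did not share 1 direction. The start region, chr4:33922779-33925574, which holds the first printed sequence, had 47.3, 56.9, 36.6 and 53.6 CPM in Cck-gated against 43.8, 43.0, 23.1 and 39.5 CPM in Lhx6-gated nuclei. It was higher in 4 of 4 libraries with a log2 fold change of 0.37 ± 0.12, but with an edgeR adjusted p of 0.132 it was not called over common regions. It was called with the gate on all cut sites (0.53, edgeR adjusted p = 0.00154) and with the gate genes read over 20 kb either side (0.28, 0.0147), settings that called 6.14% and 5.42% of all common regions. The upstream region at -3.25 kb from the start, chr4:33920659-33922021, had a log2 fold change of -0.20 ± 0.21 and was higher in 1 of 4 libraries. For regions, here and below, the share of all regions with the same direction in every library was not counted. No member region was among the 1.01% of 46683 common regions called by edgeR, 4 of 38 had an unadjusted p under 0.05 where 11.2% of all common regions had, and DESeq2 called 0 of 38 and 0.563% of all.

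Most Cnr1 regions lacked a peak in cortex replicate 2, so regions with a peak in at least 2 libraries were tested as well, a choice made after seeing this. Of 75 member regions tested 1 was called, where 0.696% of 105693 regions were. It was the intergenic region at chr4:33950302-33952537, downstream of the Cnr1 end, part of which is the third printed sequence. It had 2.66, 23.9 and 10.7 CPM in Cck-gated nuclei of cortex replicate 1 and hippocampus replicates 1 and 2, against 1.31, 7.62 and 5.23 CPM in Lhx6-gated nuclei. Cck-gated nuclei were higher in 3 of 3 libraries, on 18, 60 and 19 cut sites, with a log2 fold change of 1.28 ± 0.33 (edgeR adjusted p = 0.0325). DESeq2 gave 1.35 with an adjusted p of 0.00155.

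That call also moved with single libraries. The edgeR adjusted p was 0.098 without cortex replicate 1, 0.644 without hippocampus replicate 1 and 0.121 without hippocampus replicate 2, at log2 fold changes of 1.39, 1.02 and 1.39. Over all nuclei the region had 1.60 CPM in cortex replicate 1 over 416 covered bases, no peak in cortex replicate 2, and 11.9 and 8.32 CPM in hippocampus over 2236 and 1385 bases. Per covered kb that was 3.85 CPM in cortex replicate 1 against 5.33 and 6.01 CPM in hippocampus. At the other end, the intergenic region at -8.69 kb from the start (chr4:33915697-33916112) had a log2 fold change of 1.33 ± 0.44 (edgeR adjusted p = 0.152), higher in 3 of 3 libraries. The region at the second start, chr4:33926109-33927311, had 0.50 ± 0.35 and was higher in 3 of 3. Inside the gene, an intron region (chr4:33931322-33931988) had -0.49 ± 0.63 and a coding-exon region (chr4:33943804-33944824) -0.65 ± 0.61, each higher in 1 of 3 libraries, and with edgeR adjusted p of 0.899 and 0.837 neither was called.

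**Figure D5:**
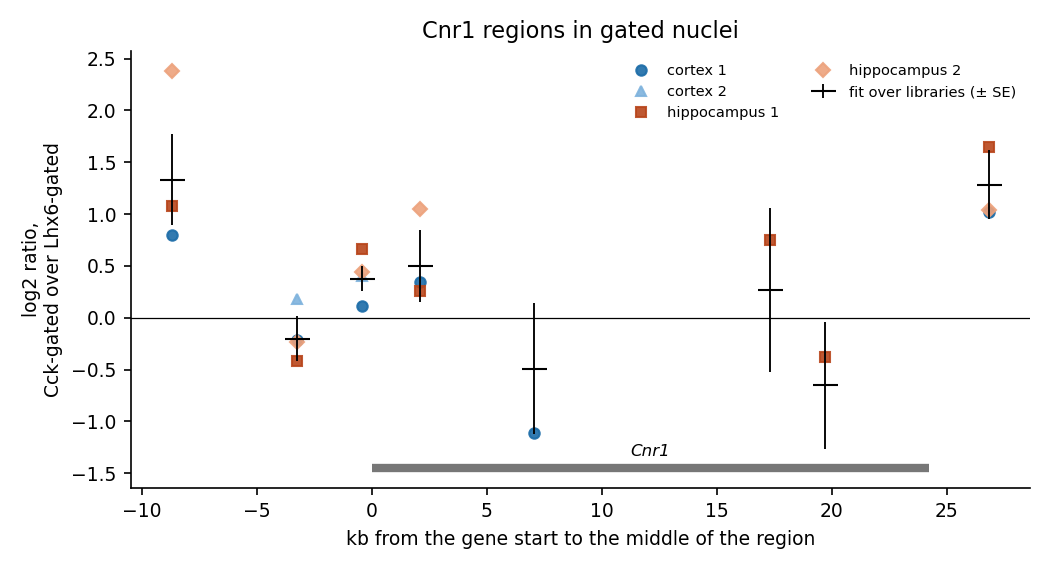
Log2 ratio of Cck-gated over Lhx6-gated CPM in the Cnr1 regions with a peak in at least 2 libraries, by distance of the region's middle from the gene start in kb; coloured points are libraries with at least 5 cut sites in each gate, black marks the fit (± SE), and the grey bar is the gene. The start region and the region beyond the gene end lie above 0 in every library shown, and the region at -3.25 kb lies below 0 in 3 of 4.

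In the other windows the smallest gate p lay in a Myrf region again. The region at the Myrf start, chr19:10240174-10241091, in the Dagla window had 5.17, 1.32, 5.97 and 1.13 CPM in Cck-gated against 11.3, 10.4, 5.01 and 12.02 CPM in Lhx6-gated nuclei. The Cck-gated values rested on 35, 1, 15 and 2 cut sites. The region was lower in 3 of 4 libraries, with a log2 fold change of -1.18 ± 0.35 (edgeR adjusted p = 0.0862). It was called by edgeR without hippocampus replicate 1, at -1.75 with an adjusted p of 0.0201, with the gate on all cut sites, at -1.15 with 0.0283, and with the 20 kb gate window, at -0.82 with 0.00577. Its relation to the oligodendrocyte-lineage markers, whose sums are given above, was not tested. The Napepld intron region chr5:21680743-21681630 had 9.16, 5.29, 4.78 and 9.02 CPM, on 62, 4, 12 and 16 cut sites, against 13.2, 15.6, 10.9 and 9.52 CPM. Its log2 fold change was -0.69 ± 0.26 (edgeR adjusted p = 0.237), and it was called with the 20 kb gate window (-0.55, 0.0409). An Mgll intron region, chr6:88758491-88763027, was lower in 4 of 4 libraries with -0.29 ± 0.13 (edgeR adjusted p = 0.353). The start regions of Daglb and Faah had the smallest gate p of their windows, at -0.24 ± 0.16 and 0.28 ± 0.17, and those of Dagla, Mgll and Napepld had 0.09 ± 0.17, -0.16 ± 0.11 and 0.00 ± 0.10.

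Whether the gate difference itself differed between hippocampus and cortex was tested as an interaction. For Cnr1 the log2 ratios of the 2 gates were 0.07 and 0.35 in cortex and 0.62 and 0.51 in hippocampus. The interaction was 0.42 ± 0.19 with an unadjusted p of 0.0269 and an adjusted p of 1.0 in edgeR's test. It was 0.06 with gates thinned to 2000 cut sites and 0.81 with gates of at least 2 cut sites, and no alternative with all libraries passed edgeR's test. Without cortex replicate 1, which left 1 cortex library, it was 0.22. The other members had interactions of -0.13 to 0.02. Of 18534 windows edgeR called 0, with 628 at an unadjusted p under 0.05, and 0 with TMM factors, so a difference between brain regions was not shown for any member.

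Of 25 other genes of the pathway, none passed the test between hippocampus and cortex, against a background of 0.087%, with a median log2 fold change of -0.08 beside -0.06 over all windows. The smallest p belonged to Gpr18, a lipid receptor, at 2.64 ± 1.26, with 36.0 and 5.47 CPM in hippocampus, 6.59 CPM in cortex replicate 1 and no peak in cortex replicate 2, and to Grm5, at 0.34 ± 0.28. Between the gates, against a background of 0.421%, 0 of 6 tested receptors, 0 of 6 synthesis genes, 0 of 4 breakdown genes, 0 of 2 binding proteins and 0 of 2 receptor partners were called by edgeR, with median log2 fold changes between -0.07 and -0.01 by role. In the interaction 0 of 24 were called, and the smallest p belonged to the synthesis genes Pla2g4e and Inpp5d.

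The members' patterns were compared across the 4 gates and 4 libraries, 16 sums in all, on log2(CPM + 1) values centred within each library. Pearson's r between Cnr1 and the others ran from -0.32 to -0.01. Daglb and Mgll had r = 0.96 and Dagla and Napepld r = 0.63, but the gate of nuclei with both genes held 13 nuclei in cortex replicate 2, where Daglb had 1 cut site, and this sum enters each such value. Of 15333 genes with a mean of at least 20 CPM, Zbtb16 with r = 0.84 and Slc44a5 with r = 0.82 were most like Cnr1. For Dagla these were Ptcd1 and Slc2a2 (0.87 and 0.86), for Daglb Gm5105 and 1110002E22Rik (both 0.99), for Mgll Adamts14 and Pelo (both 0.99), for Faah Tagap and Rsph3a (both 0.90), and for Napepld Lsg1 and Ttpal (0.93 and 0.89). These are descriptions over sums that share libraries and depth.

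The shares of nuclei in each gate overlapped between the 2 brain regions for Lhx6, and for Cck the hippocampus libraries lay between the cortex libraries. Cck-gated nuclei were 5.69% and 2.65% in cortex and 3.46% and 3.49% in hippocampus, and Lhx6-gated nuclei were 37.9% and 15.9% against 34.5% and 25.3%. The exact Clopper-Pearson 95% intervals of the Cck shares ran from 4.79% to 6.71% and 2.12% to 3.28% in cortex, so the cortex libraries differed from each other beyond counting error. The exact two-sided permutation p was 1.0 for both gates, and 2 against 2 libraries cannot go below 0.333.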

How the data were processed

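Single-nucleus ATAC-seq was analysed in 2 cortex and 2 hippocampus libraries. The authors deposited counts of transposase cut sites per peak and nucleus, made with Cell Ranger ATAC 1.2.0 on GRCm38 per the submitters' processing notes, with peaks called per library. The deposited transcription factor motif tables were not used. The paper given with the series does not describe these libraries.

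Peaks of the 4 libraries were merged, and cut sites were summed over each protein-coding gene (GENCODE M21) and 20 kb either side, scaled to library totals (CPM). Gates were set on nuclei thinned to 5000 cut sites. Counts summed per library, or per library and gate with library as a block, were tested with edgeR 4.0.16 in R 4.3.3 (quasi-likelihood test, Benjamini-Hochberg adjusted over all windows or regions), with library totals and without TMM factors. DESeq2 1.42.0 was an alternative, beside other scalings, filters, gates and windows and leaving out each library. The test was tried on simulated counts with features changed 2-fold between gates. It recovered 100 of 100 gene windows, 69 of 100 common regions and 46 of 100 regions with a peak in at least 2 libraries. The changed features were drawn from those above a minimum mean count, and every feature had the common dispersion. These numbers therefore do not give the power for regions with few cut sites. Smaller changes, such as that of the Cnr1 window, were not simulated.

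Every member was named, with the region holding its start, that with most cut sites and that with the smallest p in each comparison. Pathway genes were named where they passed, or else the 2 smallest p, and similar genes by the 2 highest Pearson correlations. A further group of the pathway list is not reported here between gates. The members and lists were chosen with earlier results of these data known. Intervals cover counting error only, and the cut sites of a fragment are not independent.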

Additional observations from a re-analysis of the deposited data

How the results depend on the processing

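Counts of calls moved with the processing, and the Cnr1 call between gates was lost in 11 alternatives and kept in 6. The direction of Cnr1 between brain regions turned in 5 alternatives and stayed in 9. Between hippocampus and cortex 16 gene windows and 275 regions were called by edgeR. With TMM factors, with covered length as an offset, and with the replicate block these became 0 and 0, with DESeq2 172 windows, with regions at least 50% covered 1 and 34, without peaks at other gene starts 0 windows, and with regions peaked in at least 2 libraries 0. The numbers shared by cortex and hippocampus libraries mark no stated pair, and deviations of the replicates numbered 1 correlated at r = 0.178 over 18399 genes. Leaving out 1 library gave 1 to 759 windows and 35 to 4741 regions.

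Between gates 78 windows and 471 common regions were called. Without the library block these were 1 and 1, with the gate on all cut sites 561 and 2866, thinned to 2000 cut sites 5 and 0, with at least 2 cut sites 7 and 5, with the 20 kb gate window 431 and 2532, and leaving out 1 library 9 to 73 and 101 to 394. The thinned readout called 36 windows, and DESeq2 263 common regions. Of regions peaked in at least 2 libraries 736 were called, 1377 by DESeq2, 5498 with the gate on all cut sites and 190 to 736 leaving out 1 library. The interaction had 0 calls, and 2 when thinned to 2000. The difference in Cck-gated share, -0.70 points, was -3.24 with the 20 kb gate window and turned sign on all cut sites (0.789), thinned to 2000 (0.0212) and with at least 2 cut sites (0.117). Leaving out 1 library it ran from -2.22 to 0.821, and the Lhx6-gated difference, 3.05 points, from -7.95 to 14.1.

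Log2 fold changes of members that turned sign were mostly small, and none of the turned values was called. Between brain regions Cnr1 had -0.234 with covered length, -0.383 with common regions, -0.383 with regions at least 50% covered and -0.0771 in the narrow window, and -0.0359 to 0.242 leaving out 1 library, where it was negative without cortex replicate 2. Daglb had -0.077 with covered length and -0.0452 with 50% covered. Faah had -0.17 with covered length, -0.26 with common regions and -0.334 with 50% covered, and -0.206 to 0.978 leaving out 1 library, where it was negative without cortex replicate 2. Napepld had 0.18 with covered length. With covered length the Cnr1 upstream, Faah intron and Armc10 intron regions had 0.0466, 0.0436 and 0.0579.

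Between gates Daglb had 0.0352 thinned to 2000. Mgll had 0.0327 on all cut sites, 0.0337 thinned, 0.0305 with at least 2 cut sites, 0.0134 with the 20 kb gate window, 0.0138 in the narrow window and 0.0183 without other starts. Faah had -0.00254 on all cut sites and -0.0133 with the 20 kb gate window, and the Daglb start region had 0.0143 on all cut sites and 0.0103 thinned. As interactions, Daglb had 0.0309 thinned, 0.512 with at least 2 cut sites and 0.0115 among nuclei with more pan-GABA cut sites, and Mgll had 0.317 and Faah 0.122 with at least 2 cut sites. Leaving out 1 library the interactions ran from -0.433 to 0.105 for Dagla, -0.0485 to 0.0053 for Mgll, -0.15 to 0.00113 for Faah and -0.0114 to 0.0526 for Napepld. The causes were not tested.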
